A study of Mus musculus with 6 samples.

Results

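The BAF complex, the mammalian SWI/SNF chromatin remodeller, was followed through 10 of its subunit genes in 6 mouse teratomas. They were taken by gene name from the array files, which hold 37001 named genes or transcripts, and comprise the progenitor subunits Actl6a, Phf10 and Ss18, the neuronal subunits Actl6b, Dpf1, Dpf3 and Ss18l1, the ATPases Smarca4 and Smarca2, and the shared subunit Dpf2. All 10 genes passed the filter on dim signal, and 19 of their 22 probes did. The tumours grew under the skin of BALB/c Nude mice from injected mouse embryonic stem cells, of a line and in hosts of an age not given in the sources used here. When tumours had reached 100 mm3, about 10 days after implantation, 3 mice began to receive a miRNA negative control and 3 a miR-124a-3p mimic. Both were injected into the tumour with the carrier Atelogen QG at 15 µg in 100 µL every 3 days up to day 28. Each array was made from RNA of a piece of 1 tumour, so every value is an average over mixed tissues and over host cells such as vessels and blood cells. All groups share the host strain, the carrier and the injections.

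BAF complexes use ATP to move nucleosomes and so open or close regulatory DNA. When neural progenitors leave the cell cycle, the complex exchanges subunits: the actin-like Actl6a gives way to its paralog Actl6b, the PHD finger protein Phf10 to Dpf1 or Dpf3, and Ss18 to Ss18l1, a calcium-responsive coactivator needed for dendrite growth. In cultured neurons miR-124 is known to take part in this exchange by repressing the Actl6a transcript through its untranslated region, while the repressor REST keeps miR-124 off outside neurons. The ATPase of a complex is either Smarca4 or Smarca2, and Dpf2 is a PHD finger subunit found in most tissues.

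The comparison of Actl6a with Actl6b rests on these probes, shown 5′ to 3′ because they define which paralog was read. The Actl6a probe lies at chr3:32621551-32621610 on the plus strand of mm9 in the array annotation. The Actl6b probe lies at chr5:138007244-138007794 on the plus strand and its 60 bases span 551 bases of genome.
Actl6a: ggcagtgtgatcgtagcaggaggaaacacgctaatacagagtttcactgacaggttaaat
Actl6b: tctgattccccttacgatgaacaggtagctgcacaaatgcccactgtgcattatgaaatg

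The windows of 250 bases before the RefSeq gene start (build GRCm38.p6) are printed for the 4 neuronal subunits and for Actl6a, the paralog that Actl6b replaces. Capitals mark the CCAAT box (CCAAT or its reverse complement ATTGG), a common promoter element, which was chosen for marking after the counts were seen. The windows are chr5:137553296-137553545 (plus strand) for Actl6b, chr7:29303755-29304004 (plus) for Dpf1, chr12:83487737-83487986 (minus) for Dpf3, chr2:180042233-180042482 (plus) for Ss18l1 and chr3:32708296-32708545 (plus) for Actl6a.
Actl6b promoter: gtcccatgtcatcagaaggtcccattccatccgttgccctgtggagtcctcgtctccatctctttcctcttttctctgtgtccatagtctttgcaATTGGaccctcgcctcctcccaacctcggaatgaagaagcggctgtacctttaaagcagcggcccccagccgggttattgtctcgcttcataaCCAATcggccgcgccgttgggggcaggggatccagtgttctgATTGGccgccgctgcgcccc
Dpf1 promoter: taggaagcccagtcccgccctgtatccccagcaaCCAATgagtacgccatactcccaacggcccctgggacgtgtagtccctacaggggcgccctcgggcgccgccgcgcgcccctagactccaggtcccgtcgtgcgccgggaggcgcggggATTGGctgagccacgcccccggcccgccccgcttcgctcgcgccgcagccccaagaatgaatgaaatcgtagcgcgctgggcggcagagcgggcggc
Dpf3 promoter: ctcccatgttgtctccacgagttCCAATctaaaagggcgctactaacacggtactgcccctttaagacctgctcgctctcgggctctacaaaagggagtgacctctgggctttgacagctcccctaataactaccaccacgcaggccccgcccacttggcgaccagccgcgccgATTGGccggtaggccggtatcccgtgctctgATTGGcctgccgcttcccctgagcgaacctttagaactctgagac
Ss18l1 promoter: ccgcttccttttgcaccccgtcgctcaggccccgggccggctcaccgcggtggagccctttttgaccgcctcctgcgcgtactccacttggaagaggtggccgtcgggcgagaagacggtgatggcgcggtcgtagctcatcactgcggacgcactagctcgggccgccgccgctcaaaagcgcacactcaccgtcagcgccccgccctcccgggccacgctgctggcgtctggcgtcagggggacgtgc
Actl6a promoter: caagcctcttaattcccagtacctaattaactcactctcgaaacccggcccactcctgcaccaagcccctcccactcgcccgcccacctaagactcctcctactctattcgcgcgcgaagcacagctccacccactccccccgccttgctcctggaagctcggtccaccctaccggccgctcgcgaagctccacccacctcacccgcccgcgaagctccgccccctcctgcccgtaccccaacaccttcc

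A CCAAT box was present 3 times for Actl6b, 3 times for Dpf3, 2 times for Dpf1, 0 times for Ss18l1 and 0 times for Actl6a, and 34.5% of 27025 promoter windows of the same length held at least 1. The GC box GGGCGG (either strand) occurred 0 times for Actl6b, 4 times for Dpf1, 1 time each for Dpf3 and Ss18l1 and 3 times for Actl6a, against 32.9% of all windows with a match. Letters of the REST element were searched as its left part TTCAGCACC and right part GGACAGC on both strands, which 0.285% and 5.29% of all windows hold. Neither was found in the windows of the 9 members with an entry, which says only that these letters are not there. The E-boxes CAGCTG and CAGATG, of the kind that proneural factors bind, are held by 12.8% and 14.5% of windows. Among the members, 1 match was found, a CAGCTG in the window of Phf10.

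Signals are given as log2 of the processed intensity minus the 75th percentile of the array, so that 0 is a probe as bright as the 75th percentile. Such values compare tumours for 1 probe and not the abundance of different genes. Of all 22946 tested genes 3.18% passed an adjusted p of 0.05 in limma, made up of 0.501% with higher and 2.68% with lower signal in the miR-124a tumours. Of the 10 members 0 were called, and 4 of 10 had higher values at an unadjusted p under 0.05, beside 11.5% of all genes. None was lower at that level, beside 15.6% of all genes, and 27.1% of all genes passed it in either direction. The groups did not overlap for 5 of the 10 members, all with higher values in the miR-124a tumours, where 15.1% of all genes had that pattern, 20.2% had the opposite one and 35.4% had either. These 5 were Actl6b, Dpf1, Ss18l1, Smarca2 and Dpf3. Dpf3 counts among them only through its brightest probe, since its other tested probe was lower in all miR-124a tumours (-0.87). The members' median log2 fold change was 0.16, beside -0.001 over all genes.

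**Figure D1:**
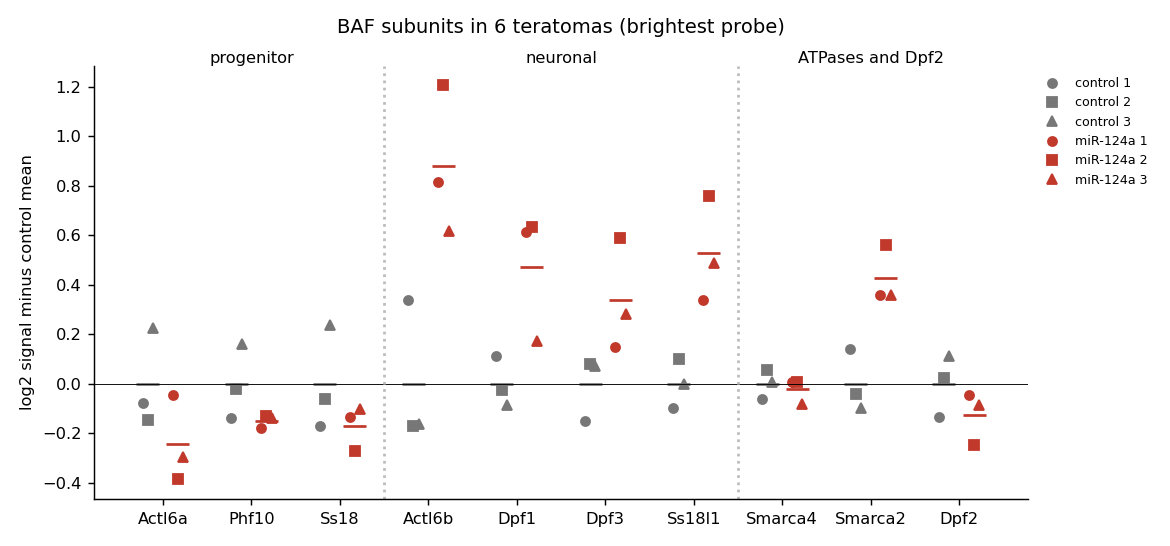
Signal of each BAF subunit in each tumour on a log2 scale, relative to the mean of the 3 control tumours. Symbols are tumours, bars are group means, with each gene read by its brightest probe. For Actl6b, Dpf1, Ss18l1, Smarca2 and this probe of Dpf3 the miR-124a tumours all lie above all controls; the other probe of Dpf3, not drawn, lies the opposite way.

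Among the neuronal subunits Actl6b, the actin-like protein of neuronal BAF, had the largest positive difference. Its processed intensity was 31.3, 21.8 and 23.1 in controls 1 to 3 and 47.1, 59.9 and 42.5 in miR-124a 1 to 3. In log2 signal these were -2.67, -3.18 and -3.17 against -2.19, -1.80 and -2.39. All 3 miR-124a tumours lay above all 3 controls, with miR-124a 2 highest, and the probe was well above background on all 6 arrays although dim. The log2 fold change was 0.87 ± 0.21 (SE, n = 3 per group; 95% interval 0.37 to 1.38), a fold of 1.83 (limma, adjusted p = 0.0754). With normexp background correction (offset 50) and quantile scaling, which draws dim values together, it was 0.31 (adjusted p = 0.096). The gene has a single probe on the array.

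Ss18l1, the coactivator that replaces Ss18, had log2 signals of -0.42, -0.22 and -0.32 in the controls and 0.02, 0.44 and 0.17 in the miR-124a tumours. The groups did not overlap, and miR-124a 2 was again the highest. The log2 fold change was 0.53 ± 0.13 (95% interval 0.21 to 0.86), a fold of 1.45 (limma, adjusted p = 0.0825). This value rests on 1 probe, at chr2:179804414-179804473 (mm9).

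Dpf1, the PHD finger subunit most restricted to neurons, had log2 signals of 2.03, 1.89 and 1.83 in controls and 2.53, 2.55 and 2.09 in miR-124a tumours. The groups did not overlap, though miR-124a 3 lay close to control 1. The log2 fold change was 0.47 ± 0.15 (95% interval 0.11 to 0.84; limma, adjusted p = 0.12). A second probe of Dpf1, for predicted transcripts, was not well above background on any array and was not tested.

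Dpf3, a PHD finger protein of neuronal BAF that is also made in heart and skeletal muscle, was read by 2 probes that gave opposite signs. The brightest probe, annotated to the transcript NM_001267625 (chr12:84314738-84314797, mm9), had log2 signals of -3.06, -2.83 and -2.84 in controls and -2.76, -2.32 and -2.63 in miR-124a tumours. It was the brightest only on average over all 6 arrays: in the controls its mean of -2.91 lay below the -2.71 of the second probe, and in the miR-124a tumours its mean of -2.57 lay above -3.58. The choice of this probe therefore used the difference between groups, and the sign of the gene's value follows from it. Its log2 fold change was 0.34 ± 0.14 (95% interval -0.01 to 0.69; limma, adjusted p = 0.19), or 0.14 with normexp and quantile scaling. The second probe is annotated to NM_058212 and NM_001267626 (chr12:84370514-84370573, minus strand of mm9), and its sequence is given because the sign of the gene depends on which probe is read.
Dpf3 second probe: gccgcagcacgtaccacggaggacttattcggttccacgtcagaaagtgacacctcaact

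The second probe had log2 signals of -2.99, -2.24 and -2.89 in controls and of -3.52, -3.83 and -3.37 in miR-124a tumours. All 3 miR-124a tumours lay below all controls, the reverse of the first probe, and control 2 was the highest. Among all single probes tested, 19.3% lay lower without overlap and 15.1% lay higher. The second probe was dim, like the first. Its processed intensity was 25, 42 and 27.9 in controls and 18.7, 14.7 and 21.6 in miR-124a tumours. A value with normexp and quantile scaling was not computed for it. Its log2 fold change was -0.87 ± 0.23 (limma, adjusted p = 0.0922 over 35719 probes). Of those probes 2.72% were called. The log2 difference between the probes within a tumour was higher by 1.21 in the miR-124a group, with SDs of 0.34 and 0.44 (n = 3 each; exact two-sided permutation p = 0.1, the smallest that 3 against 3 allow). This comparison was chosen after the probes had been seen to disagree. With the mean of both probes the gene's log2 fold change was -0.26 (adjusted p = 0.289), so that no direction holds for Dpf3 as a gene. In the same tumours 13 of 14 tested markers of skeletal and cardiac muscle were called lower, beside 2.68% of all genes. All 14 markers had lower values, with a median log2 fold change of -1.63. Their part in the value of either probe was not tested.

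**Figure D2:**
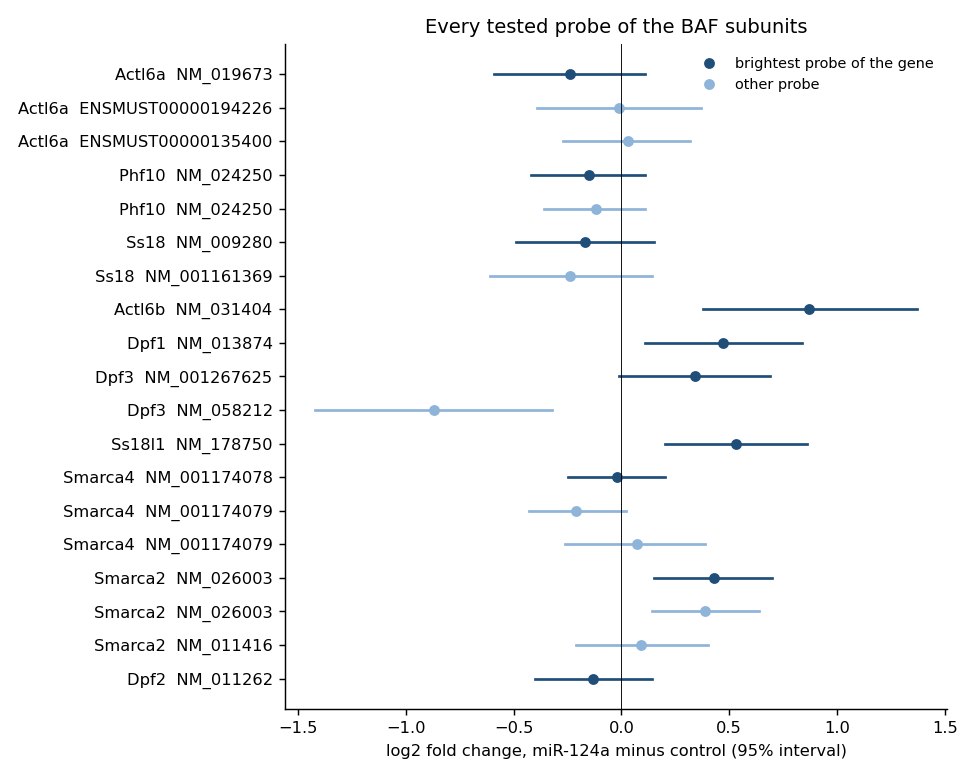
Log2 fold change (miR-124a minus control, points) with 95% intervals (lines) for the 19 tested probes of the 10 subunits, labelled by the transcript each is annotated to. The probes of Dpf3 stand on opposite sides of 0, and the probe of Smarca2 annotated to NM_011416 alone lies nearer 0 than the pair shared with NM_026003.

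The progenitor subunits showed no difference beyond the spread of the tumours. Actl6a, the actin-like subunit that miR-124 represses in neurons, had log2 signals of 0.52, 0.45 and 0.82 in controls and 0.55, 0.21 and 0.30 in miR-124a tumours. The groups overlapped, control 3 was the highest, and miR-124a 1 lay above controls 1 and 2. The log2 fold change was -0.24 ± 0.14 (95% interval -0.59 to 0.10; limma, adjusted p = 0.315). The other 2 probes of Actl6a, annotated to further transcripts, had -0.01 and 0.03. Without control 3 the value of the brightest probe was -0.13, and with the mean of the gene's probes it was -0.08. The interval of the brightest probe leaves room for a drop of up to 0.59 on the log2 scale, so the data do not show that the level was the same.

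Phf10, the PHD finger subunit of dividing progenitors, had log2 signals of 1.83, 1.95 and 2.13 in controls and 1.79, 1.84 and 1.83 in miR-124a tumours. Its log2 fold change was -0.15 ± 0.11 (95% interval -0.41 to 0.10; limma, adjusted p = 0.383), and -0.12 at its second probe. Ss18, the progenitor partner of the exchange with Ss18l1, had 3.11, 3.22 and 3.52 in controls and 3.15, 3.01 and 3.18 in miR-124a tumours. Both genes overlapped between the groups, with control 3 highest in each as in Actl6a. Ss18 had a log2 fold change of -0.17 ± 0.13 (95% interval -0.49 to 0.15; limma, adjusted p = 0.433), and -0.24 at its second probe. Without control 3 Phf10 had -0.07 and Ss18 had -0.05.

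Of the ATPases, Smarca2 had higher values in the miR-124a tumours, while the brightest probe of Smarca4 did not differ beyond its spread. Smarca2 (BRM), the ATPase that becomes more abundant as cells differentiate, had log2 signals of 2.82, 2.64 and 2.58 in controls and 3.04, 3.24 and 3.04 in miR-124a tumours. The groups did not overlap. The log2 fold change was 0.43 ± 0.11 (95% interval 0.16 to 0.69; limma, adjusted p = 0.0841). It passed the threshold under 2 alternatives: normexp correction before quantile scaling gave 0.47 (limma, adjusted p = 0.0288), and a robust variance trend gave 0.43 (adjusted p = 0.0456). A second probe shared by the transcripts NM_026003 and NM_011416 had 0.39, whereas the probe annotated to NM_011416 alone had 0.09 ± 0.13, with groups that overlapped.

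Smarca4 (BRG1), the ATPase of embryonic stem cells and progenitors, had log2 signals of 4.79, 4.91 and 4.86 in controls and 4.86, 4.86 and 4.77 in miR-124a tumours. Its log2 fold change was -0.02 ± 0.09 (95% interval -0.23 to 0.19; limma, adjusted p = 0.876), and 0.12 with quantile scaling. A second probe had 0.37, 0.43 and 0.33 in controls and 0.25, 0.14 and 0.11 in miR-124a tumours, which did not overlap (-0.21 ± 0.09; limma, adjusted p = 0.217 over all probes). The third had 0.07. Among all single probes tested, 19.3% lay lower without overlap, as the second probe of Smarca4 did. Dpf2 had 2.78, 2.94 and 3.03 in controls and 2.87, 2.67 and 2.83 in miR-124a tumours, a log2 fold change of -0.13 ± 0.11 (limma, adjusted p = 0.479). The groups overlapped for Dpf2 and for the brightest probe of Smarca4. The other 2 probes of Dpf2 were well above background on no control array and on at most 1 miR-124a array, and were not tested.

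At the RNA level the exchange was followed as the log2 difference between the neuronal and the progenitor subunit within each tumour. This difference does not depend on the scaling by percentile. It reads transcripts of mixed tissue and not the subunits held in BAF complexes. A change within cells and a change in the mix of cells cannot be told apart. Relative to the control mean, Actl6b minus Actl6a was 0.41, -0.03 and -0.38 in controls and 0.86, 1.58 and 0.91 in miR-124a tumours. The mean difference between groups was 1.12, a ratio 2.17-fold higher, with an SD of 0.40 in controls and 0.41 in miR-124a tumours (n = 3 each). The groups did not overlap, and with normexp and quantile scaling the difference was 0.51. Ss18l1 minus Ss18 was higher by 0.70 (SDs of 0.21 and 0.29). Dpf1 minus Phf10 was higher by 0.63 (SDs of 0.25 and 0.27). Dpf3 minus Phf10 was higher by 0.49 with the brightest probe of Dpf3 and was -0.13 with the mean of its probes. Each of the 4 differences had an exact two-sided permutation p of 0.1 with the brightest probes, the smallest that 3 against 3 allow, so none could pass 0.05. A higher ratio, if it holds, would mean unequal change of the paralogs and not that either stayed the same.

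**Figure D3:**
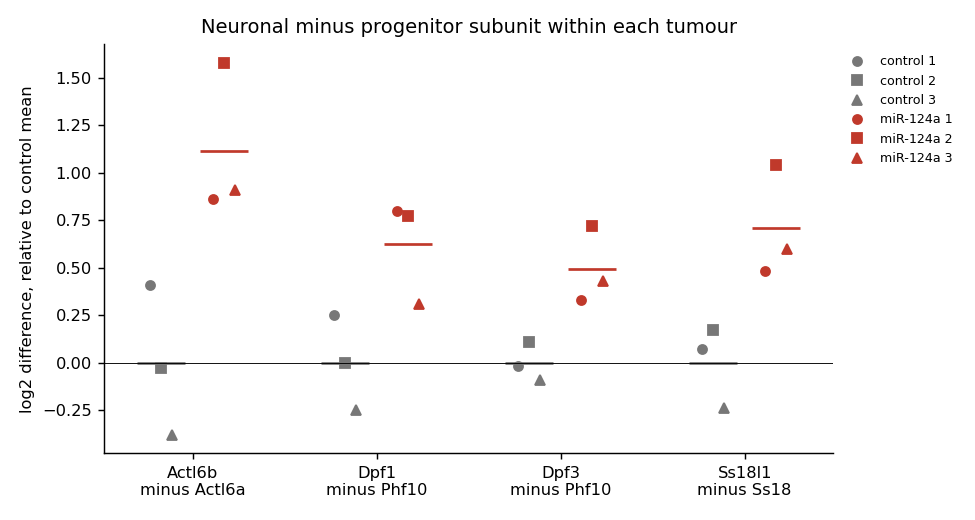
Log2 difference between the neuronal and the progenitor subunit within each tumour, relative to the control mean, for 4 subunit exchanges with the brightest probe of each gene. Symbols are tumours and bars are group means; with these probes the 3 miR-124a tumours lie above the 3 controls in each exchange, and for Dpf3 this rests on the choice of probe.

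Neuron markers had positive differences in the same tumours, but none passed the adjusted threshold. Of 15 listed genes, all well above background on all 6 arrays, 0 were called, 10 had higher values at an unadjusted p under 0.05 (limma; 11.5% of all genes), and 15 of 15 had positive log2 fold changes from 0.20 to 0.70 with a median of 0.45. The groups did not overlap for 9 of the 15, all higher in the miR-124a tumours, a pattern of 15.1% of all genes. They overlapped for Snap25, Syt1, Nefl, Nefm, Syp and Sst. Their summed signal, in units of the 75th percentile, was 247 to 290 in controls and 342 to 432 in miR-124a tumours. Tubb3, a neuronal tubulin, and Elavl3, a neuronal RNA-binding protein, had log2 fold changes of 0.58 ± 0.11 and 0.50 ± 0.13 (limma, adjusted p = 0.0556 and 0.0832). Tubb3 passed with quantile scaling (limma, adjusted p = 0.0357). With normexp and quantile scaling both passed (limma, adjusted p = 0.0158 for Tubb3 and 0.0396 for Elavl3). With a robust variance trend both passed too (0.0255 and 0.0457). Neither passed when any 1 tumour was left out (adjusted p of at least 0.0832 and 0.122). The neuron markers' median over the controls was 0.40, 0.63 and 0.31 in miR-124a 1 to 3, and that of the 4 neuronal subunits was 0.48, 0.70 and 0.39, in the same order of tumours. In controls 1 to 3 the markers had 0.07, 0.03 and -0.07 and the subunits 0.01, 0.03 and -0.04, in a different order. The subunit medians include the brightest probe of Dpf3. In a bulk sample more neurons and more RNA of these genes per neuron cannot be told apart.

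**Figure D4:**
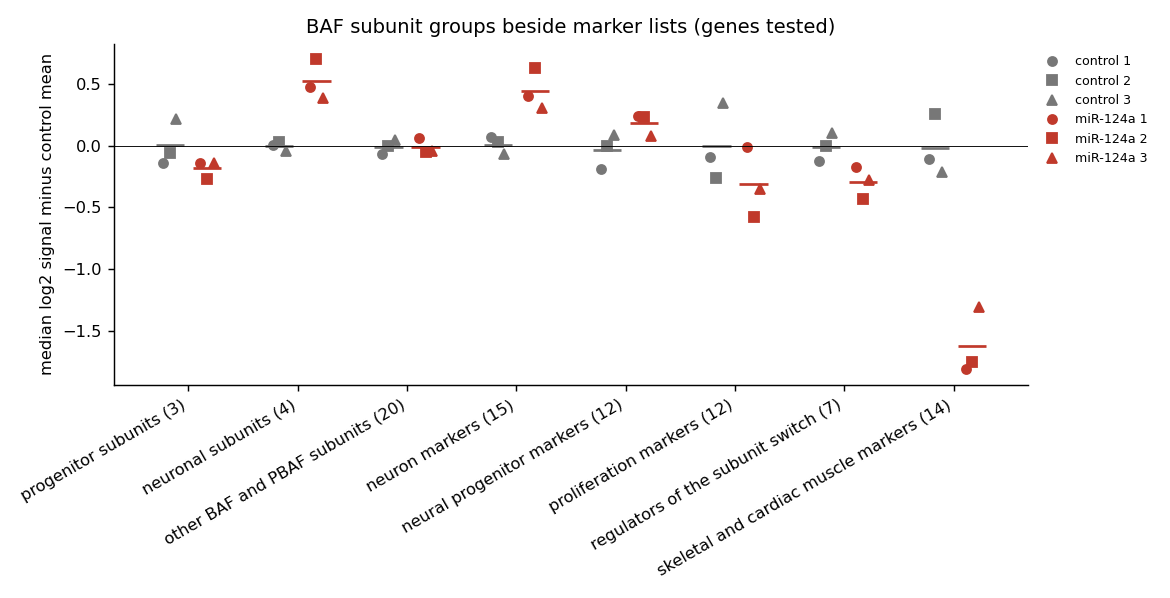
Median log2 signal relative to the control mean over the genes of each group or marker list, per tumour; the number of tested genes is in brackets. Symbols are tumours and bars are means of the 3 values; neuronal subunits and neuron markers lie higher in the miR-124a tumours, and muscle markers lower.

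Neural progenitor markers had values in both directions. Of 12 genes 0 were called and the median was 0.20 (limma). At an unadjusted p under 0.05, 2 were higher and 2 lower, beside 11.5% and 15.6% of all genes. These counts lie near those shares. The summed signal of the list, 99.3 to 115 in miR-124a tumours, overlapped that of 90.2 to 103 in controls. Nes, the progenitor filament nestin, and Emx2, a forebrain patterning factor, had -0.60 ± 0.14 and -0.70 ± 0.18 (adjusted p = 0.0713 and 0.0834). Nes passed with normexp and quantile scaling (limma, adjusted p = 0.0448) and with a robust variance trend (0.0386), where Emx2 did not (0.0534 and 0.0519). When any 1 tumour was left out neither passed. Nes and Emx2 are the markers with the smallest p, but 9 of the 12 had positive values and 3 negative ones. Lhx2 and Pax6, transcription factors of forebrain progenitors named after their values were seen, had 0.54 ± 0.16 and 0.46 ± 0.14 (limma, adjusted p = 0.108 and 0.117), with miR-124a tumours above all controls. Proliferation markers, which follow dividing cells, had a median of -0.31, with 0 of 12 called (limma). All 12 had negative values, from -0.57 to -0.10. At an unadjusted p under 0.05, 2 were lower and 0 higher. That count of 2 of 12 lies near the 15.6% of all genes lower at that level. The lowest values were those of the mitotic kinase Aurkb at -0.57 ± 0.17 and the cyclin Ccna2 at -0.42 ± 0.15 (limma, adjusted p = 0.112 and 0.149). Control 3 had the highest median of this list among the controls (0.35), as it had the highest signal of Actl6a, Phf10 and Ss18. The summed signal of the proliferation markers was 41.4 to 60.4 in controls and 34.5 to 46.8 in miR-124a tumours. Their part in the progenitor subunit values was not tested.

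Muscle markers had the largest median difference of the marker lists, with a summed signal of 652 to 990 in controls and 238 to 349 in miR-124a tumours. Of 15 listed genes 14 were tested (Myf5 was not), and all 14 had lower values. Of these 13 were called, beside 2.68% of all genes called lower. Desmin (Des) did not pass (-1.62, limma, adjusted p = 0.0532). Myog, Actc1, Myod1 and Ryr1 had log2 fold changes of -1.65, -1.39, -1.99 and -1.69 (limma, adjusted p = 0.0184, 0.0198, 0.022 and 0.022). Each of these 4 calls was lost, with its direction kept, when control 1, control 2, miR-124a 1 or miR-124a 2 was left out (adjusted p from 0.0578 to 0.0981). Smarcd3, a BAF subunit of heart and muscle, had log2 signals of 2.57, 2.83 and 2.23 in controls and 2.09, 2.43 and 2.19 in miR-124a tumours, with groups that overlapped (-0.31 ± 0.18, adjusted p = 0.304); it was singled out after its values were seen.

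The other subunits of BAF and of its PBAF form had differences in both directions. Of 20 genes, all tested, 1 was called and 19 were not, with a median log2 fold change of -0.03. That share lies near the background of 3.18%. At an unadjusted p under 0.05, 5 were higher and 2 lower (27.1% of all genes in either direction), and the groups did not overlap for 5 higher and 4 lower genes (35.4% of all genes). Bcl7a, a small accessory subunit, rose by 0.61 ± 0.11 on the log2 scale, a fold of 1.52 (limma, adjusted p = 0.049). Its signals were 2.71, 2.44 and 2.66 in controls and 3.30, 3.23 and 3.10 in miR-124a tumours, which did not overlap. Its second probe had 0.00, and with quantile scaling, array weights, a replicate block, no filter on dim probes, the mean of its probes or any 1 tumour left out the call was lost (adjusted p from 0.0506 to 0.161).

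Bcl7c and Brd7, the latter a bromodomain subunit of PBAF, had log2 fold changes of -0.38 ± 0.09 and -0.34 ± 0.09 (limma, adjusted p = 0.0779 and 0.0898). Over all tested probes the values ran from -0.38 to 0.00 for Bcl7c and from -0.35 to 0.12 for Brd7, and with the mean of probes the genes had -0.24 and -0.23. Both passed with normexp and quantile scaling (-0.33 and -0.26, where limma gave an adjusted p of 0.0427 and 0.0467). Bcl11b, a zinc finger subunit of neurons and T cells, had 0.44 ± 0.12 (adjusted p = 0.0914), and its relative Bcl11a, abundant in the developing cortex and named after its values were seen, had 0.53 ± 0.15 (adjusted p = 0.0937). For both, the miR-124a tumours lay above all controls. Brd9 and Bicral, also named after their values were seen, had the same pattern. Their log2 fold changes were 0.33 ± 0.10 and 0.30 ± 0.11 (limma, adjusted p = 0.113 and 0.152). The other probe of Brd9 had 0.42 and that of Bicral -0.05. Together with Bcl7a, Bcl11a and Bcl11b, they are the 5 higher genes of this list. The core subunits Smarcb1, Smarcc1 and Smarce1 had -0.05, -0.19 and -0.04 at their brightest probes, though the second probe of Smarcb1 had -0.50, and Arid1a and Arid1b, the DNA-binding subunits that define the BAF form, had 0.12 and -0.01. None of these 5 passed (limma, adjusted p from 0.37 to 0.941).

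Of 7 regulators linked to the exchange, 0 were called, beside 3.18% of all genes (limma). At an unadjusted p under 0.05, 3 were lower, beside 15.6% of all genes. The median was -0.32, with 6 negative values and 1 positive one. The REST corepressor Rcor1 and the phosphatase Ctdspl had -0.34 ± 0.10 and -0.33 ± 0.11 (limma, adjusted p = 0.115 and 0.131), with groups that did not overlap. REST itself (Rest) had -0.32 ± 0.14 (adjusted p = 0.201). The other regulators are named after their values were seen. Ctdsp1 had -0.63 ± 0.24 with groups that overlapped (limma, adjusted p = 0.16). Ctdsp2, Ptbp1 and Ptbp2 had -0.24, -0.17 and 0.18.

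The genes whose log2 signals over the 6 arrays were most like those of Actl6b, among 16800 genes above background on all arrays and with a RefSeq symbol, were Srrm3, Cdc42se2 and Map2, with Pearson correlations of 0.9998, 0.9986 and 0.9981. Map2 is a microtubule protein of dendrites. For Actl6a they were Sgo2a, Mc5r and Ect2 (0.9987, 0.9976 and 0.9937), of which Sgo2a and Ect2 act in cell division. With 6 arrays and this many genes such values are a description only, and the arrays share the difference between groups.

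All 6 arrays lay on 1 slide and were scanned together, with 63.4% to 65.9% of probes well above background and correlations of 0.9857 to 0.992 within groups. The controls occupied slide row 1 and the treated tumours slide row 2, so slide row and treatment cannot be told apart for any member. Mice had been assigned to the groups at random, and each tumour came from its own animal.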

How the data were processed

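Expression was measured in 3 control and 3 miR-124a teratomas on 1-colour Agilent arrays. The deposited intensity had been background-subtracted and detrended by Agilent Feature Extraction 11.5.1.1, with low values replaced by surrogates, per the file headers. The deposited log2 value table by the authors differed from the log2 of the processed intensity only by 1 shift for each array (SD of the difference at most 0.0029), so its scale and direction are those of signal; the tool behind it was not stated in the labels.

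Of 59305 spots that were not controls, spots of 1 probe were averaged (56605 probes) and 22 flagged as outliers were left out; 0 spots were saturated. From the log2 intensity the 75th percentile of each array was subtracted. Tests covered the 35719 probes that either group showed well above background on its 3 arrays, and the brightest of these stood for each gene. Genes were named by accession from RefSeq (GRCm38.p6; 32979 probes), symbol (10223) or older symbol (520), and 12861 kept the file's name; promoters of 9 of 10 members matched. The comparison used limma 3.58.1 (R 4.3.3) on the 6 arrays with no covariate, and p-values were adjusted by Benjamini-Hochberg for 22946 genes; the method was tested on simulated data. Intervals are 95% from the moderated fit. The number of arrays limits the precision.

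The members and lists were chosen with earlier results of these data known. Named genes are all members, of the other subunits those past the threshold or the 4 with the smallest p, of each marker list up to 4 past the threshold or otherwise the 2 with the smallest p, and the 3 genes most like Actl6a and Actl6b; others are said to be so or are given as core subunits. Alternatives were quantile scaling, normexp with quantile scaling, the authors' table, 2 other filters on dim probes, the mean of probes, a replicate block, a robust variance trend, array weights and leaving out each tumour. Figures were drawn with matplotlib 3.10.9.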

Additional observations from a re-analysis of the deposited data

How the results depend on the processing

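With 3 tumours per group, 0 of 10 members passed, and 1, Smarca2, passed with normexp and quantile scaling (0.47) or a robust variance trend (0.43). When any 1 tumour was left out 9 kept their direction, and Smarca4 ran from -0.06 to 0.00. Leaving out control 3 brought Actl6a, Phf10 and Ss18 to -0.13, -0.07 and -0.05, and the mean of probes brought Actl6a to -0.08. Smarca4 turned to 0.12 with quantile scaling and 0.11 with normexp and quantile scaling. Dpf3 turned to -0.26 with the mean of its probes and to -0.87 with the probe of NM_058212 (an alternative chosen after seeing the data), and Dpf3 minus Phf10 to -0.13 with the mean of probes; its 2 probes have opposite signs. Dim signal limits Actl6b and Dpf3, whose values with normexp and quantile scaling were 0.31 and 0.14.

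The 730 genes called changed became 1542 with normexp and quantile scaling, 1588 with a robust variance trend, 81 without the filter on dim probes (37001 genes tested) and from 0 to 365 when a tumour was left out (from 4076 to 6093 at an unadjusted p under 0.05). The share of lower calls was 84.2%, and 62.5% with normexp and quantile scaling. The 1 call among 20 other subunits became 4 with normexp and quantile scaling (Bcl11a, Bcl7a, Bcl7c and Brd7), 3 with the variance trend, and 0 with quantile scaling, no filter, the mean of probes, array weights, or any tumour left out. With a replicate block 0 genes, 0 members and 0 other subunits were called (limma; 4954 genes and 5 members at an unadjusted p under 0.05). The labels state no pairing of same-numbered tumours. Their deviations from the group means were correlated at -0.16, -0.04 and -0.06. These values cannot exclude a pairing, because the deviations were centred within groups of only 3 tumours. Beyond what is stated, the cause of these shifts was not tested.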
